A study of Mus musculus with 4 samples.

Results

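The renin-angiotensin system was followed through 7 genes, Ren1, Agt, Ace, Agtr1a, Enpep, Mme and Mas1, taken by gene symbol from the 32285 genes that the files list for every kidney section. All 7 had counts in every section, from 175 UMIs for Mas1 to 11112 UMIs for Ace over the 4 sections. A UMI (unique molecular identifier) is the tag of 1 captured RNA molecule, and a Visium slide collects the poly(A) RNA of the tissue lying on each of its barcoded spots, which can span several cells. All kidneys were left kidneys of male wild type C57BL/6J mice aged 7 to 8 weeks, snap-frozen without the capsule and cut at 10 µm, and all sections lay on 1 slide. The 2 normal sections came from control kidneys. The 2 ischemic sections came from mice given sodium pentobarbital, whose renal pedicles were clamped on both sides for 30 min, with the kidneys taken 24 h after ischemia. The sources used here do not say whether the control mice were anesthetized or operated on, nor from which mouse each section came. The p-values of ischemic against normal sections therefore measure the spread between sections, which may be technical. Where parts of a section are compared with each other, the p-values measure how that difference varied between sections. Spots were never used as replicates.

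In this system renin, the product of Ren1, cuts angiotensinogen (Agt) to angiotensin I, and angiotensin-converting enzyme (Ace) trims it to angiotensin II, which raises blood pressure and sodium retention through the type 1 receptor (Agtr1a). Aminopeptidase A (Enpep) takes angiotensin II to angiotensin III, while neprilysin (Mme) forms angiotensin 1-7, the peptide assigned to the receptor Mas1. In the kidney, renin is released by juxtaglomerular cells of the afferent arteriole, angiotensinogen and the 3 peptidases are known from the proximal tubule, and Enpep is also known from podocytes. C57BL/6 mice lack Ren2, the extra renin gene of some other strains.

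Sections held 25957128 to 44528078 UMIs over 10312 spots, and levels are given as CPM, the UMIs of a gene per 1000000 UMIs of the section or zone. Barcodes name positions on the array, and 1833 to 2137 of them were shared by a pair of sections. The proximal tubule list (Lrp2, Cubn, Ggt1, Dpp4, Vil1, Slc3a1, Slc9a3 and Slc4a4) and the podocyte list (6 genes, among them Nphs1, Podxl, Synpo and Wt1) were detected in full in every section. The injury genes Havcr1 and Lcn2, read as a check of the labels, had log2 fold changes of 9.64 and 8.78 in ischemic sections. Spots were assigned to zones by marker lists that hold none of the 7 genes, scored on each spot with its neighbours, and the zones outside the cortex are uncertain: scored without neighbours, between 80.6% and 84.4% of the cortex spots stayed cortex, against 57.8% to 75.3% of the spots of the stripes and the inner medulla. Several listed markers are themselves tubular genes, so a shift of a zone's outline with injury and a change of RNA within it cannot be told apart. Adipocyte-rich spots numbered 129 and 111 in the normal sections and 0 in both ischemic sections, and held 0% to 4.28% of any member's counts.

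The promoters of Ren1, Agt and Ace are shown because these genes gave, in turn, a rise, a change whose direction differed between zones, and the fall of greatest size among the 7 genes in whole sections. The sequences are from RefSeq on GRCm38.p6 (the build mm10), run from 250 bases before to 50 bases after the annotated start, are written on the gene's own strand, and have matches to TATAA on either strand in capitals. Ren1 lies on the plus strand at chr1:133350424-133350723, Agt on the minus strand at chr8:124569657-124569956, and the first start of Ace on the plus strand at chr11:105967698-105967997.
Ren1: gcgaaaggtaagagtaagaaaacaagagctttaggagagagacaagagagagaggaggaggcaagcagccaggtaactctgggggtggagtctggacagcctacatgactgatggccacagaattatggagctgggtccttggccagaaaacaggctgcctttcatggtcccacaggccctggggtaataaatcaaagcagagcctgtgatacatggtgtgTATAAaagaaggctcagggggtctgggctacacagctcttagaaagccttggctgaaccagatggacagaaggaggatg
Agt: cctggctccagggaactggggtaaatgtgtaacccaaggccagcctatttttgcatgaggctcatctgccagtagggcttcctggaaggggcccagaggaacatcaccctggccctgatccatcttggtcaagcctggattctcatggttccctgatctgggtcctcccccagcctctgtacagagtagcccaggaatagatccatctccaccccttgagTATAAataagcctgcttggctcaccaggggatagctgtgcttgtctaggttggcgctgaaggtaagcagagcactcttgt
Ace: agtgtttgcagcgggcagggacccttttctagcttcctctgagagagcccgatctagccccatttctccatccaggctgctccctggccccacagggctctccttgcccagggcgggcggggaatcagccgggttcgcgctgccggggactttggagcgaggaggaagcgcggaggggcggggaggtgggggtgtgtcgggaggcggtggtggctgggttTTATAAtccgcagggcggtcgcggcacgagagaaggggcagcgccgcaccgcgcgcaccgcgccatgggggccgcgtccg
All 3 hold TATAA on the gene strand, with its first base at -29 in Ren1, -30 in Agt and -29 in Ace, counted from the start. The Ace match, TTATAA, also reads as TATAA on the other strand. Of 32544 RefSeq promoters of this length, 24.8% held TATAA on either strand. RefSeq promoter entries were found for 6 of the 7 genes, all but Agtr1a. Enpep held the letters on the other strand only, at -51 and 1, and Mme and Mas1 did not hold them in these windows. The letters TTCNNNGAA of a STAT site stood in Agt at -172, in Enpep at -141 and in the first Mme start at -166, against 8.33% of all promoters. Of the other motifs searched on both strands, the AP-1 letters TGAGTCA stood in 2 overlapping Mme windows (5.19% of promoters) and the CRE letters TGACGTCA in none of the windows (1.80%). Ace has another start within the gene, the one used in testis. The files give 1 count per gene, so transcripts from its 2 starts were not separated.

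By position on GRCm38, the genes lie apart from each other: Ren1 on chromosome 1 from 133350510 to 133360325, Agt on chromosome 8 from 124556534 to 124569706, Ace on chromosome 11 from 105967945 to 105989964, Agtr1a on chromosome 13 from 30336441 to 30382867, and Mas1 on chromosome 17 from 12841079 to 12868143. Enpep and Mme share chromosome 3, Enpep from 129269175 to 129332720 and Mme from 63241537 to 63386030. All 7 are annotated as protein coding.

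In whole sections, the comparison of ischemic with normal kidney made here found 5 of the 7 genes lower in ischemic sections, 1 higher and 1 not past the threshold. Ace, Mme, Mas1, Agt and Agtr1a fell and Ren1 rose. In the same comparison 60.6% of the 15305 genes tested passed (31.0% higher and 29.7% lower), so that a pass is common here and the sizes say more than the count. The median log2 fold change of the 7 genes was -1.35, against 0.04 over all genes tested. Fewer cells of a type and less RNA per cell cannot be told apart in these sums.

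Ren1 stood at 35.3 and 45.4 CPM in normal sections 1 and 2 and at 60.1 and 61.5 CPM in ischemic sections 1 and 2. Both ischemic sections were above both normal ones. The log2 fold change was 0.33 (standard error (SE) 0.094, edgeR adjusted p = 0.0135), a small rise that did not pass with DESeq2 (adjusted p = 0.0663) or in edgeR without ischemic section 1 or 2 (adjusted p = 0.127 and 0.154).

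Agt, the substrate of renin, had 72.3 and 61.3 CPM in the normal and 31.7 and 32.4 CPM in the ischemic sections, a log2 fold change of -1.35 (SE 0.15, edgeR adjusted p = 7.66e-05). Ace had 147 and 127 CPM in the normal and 16.9 and 20.8 CPM in the ischemic sections, a log2 fold change of -3.15 (SE 0.18, edgeR adjusted p = 1.12e-06). For neither gene did the conditions overlap, and Ace had the lowest log2 fold change of the 7 genes. Mme, which degrades many small peptides besides those of this system, had 59.3 and 58.8 CPM in the normal and 19.1 and 20.03 CPM in the ischemic sections, a log2 fold change of -1.88 (SE 0.12, edgeR adjusted p = 1.97e-06).

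Enpep stood at 18.8 and 29.6 CPM in the normal and at 22.8 and 24.0 CPM in the ischemic sections. The 2 ischemic values lay between the 2 normal ones. Its log2 fold change was -0.30 (SE 0.13, edgeR adjusted p = 0.0750). Over 12 alternatives it stayed negative, from -0.47 without normal section 1 to -0.045, and 4 of them passed. These included edgeR with no filter on low counts (-0.27, adjusted p = 0.0363) and with a replicate block (-0.29, adjusted p = 0.0117).

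The receptors fell. Agtr1a had 20.8 and 22.3 CPM in the normal and 12.8 and 11.8 CPM in the ischemic sections, a log2 fold change of -1.09 (SE 0.11, edgeR adjusted p = 3.23e-05). Mas1 rested on few molecules, with 87 and 52 UMIs in the normal and 20 and 16 UMIs in the ischemic sections. In CPM that was 1.95 and 1.88 against 0.644 and 0.616, a log2 fold change of -1.89 (SE 0.29, edgeR adjusted p = 4.43e-04).

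**Figure D1:**
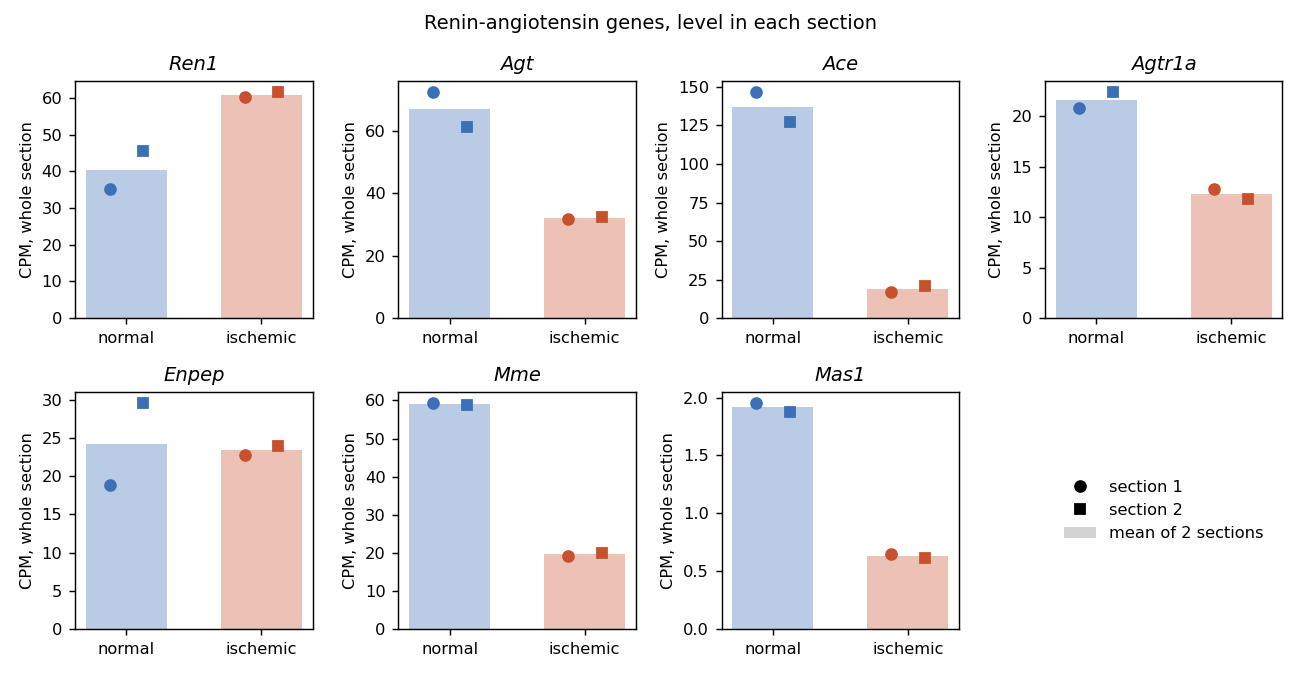
CPM of each gene in each whole section, 1 panel per gene with its own axis from 0. Points are sections, bars the mean of 2 sections. The ischemic points lie below the normal ones for Agt, Ace, Agtr1a, Mme and Mas1 and above them for Ren1, while those of Enpep lie between the 2 normal points.

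CPM and fold changes use different scales. The fold changes are relative to TMM factors, which ran from 0.829 in normal section 1 to 1.104 in ischemic section 2, and the median of all genes lay at 0.04 on the log2 scale. With section totals in place of TMM that median lay at 0.31 and 67.0% in place of 51.1% of called genes were higher in ischemic sections. A log2 difference in CPM is thus about that much higher than the fitted one. The direction of the 7 genes was the same on both scales in whole sections, but for Enpep in the cortex and both stripes it was not.

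The proximal tubule list moved with these genes. In whole sections 7 of its 8 genes fell and 0 rose, with a median log2 fold change of -1.78, and its summed level was 2059 and 1898 CPM in the normal and 691 and 667 CPM in the ischemic sections. The part of this list in the falls of Ace, Mme and Agt was not tested. The mural list (Acta2, Myh11, Tagln, Rgs5, Pdgfrb and Mcam), which covers the vessel wall cells that renin cells resemble, had 4 genes that rose and 2 that fell, at 195 and 302 CPM summed in the normal and 413 and 440 CPM in the ischemic sections. All 4 neutrophil genes (S100a8, S100a9, Csf3r and Cxcr2) rose.

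Normal kidney showed the genes in 2 opposite layers. With the outer stripe of the outer medulla set against the cortex, within sections, 3 of the 7 genes were higher in the outer stripe (Agt, Mme and Ace) and 3 were lower (Ren1, Enpep and Agtr1a), where 22.2% of all genes passed (12.1% higher and 10.1% lower). The outer stripe holds the straight end of the proximal tubule, and the cortex its convoluted start and most glomeruli.

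Agt had 28.3 and 25.5 CPM in the cortex of normal sections 1 and 2 and 121 and 111 CPM in their outer stripe. The difference was 2.27 on the log2 scale (SE 0.16, edgeR adjusted p = 7.67e-10). Mme went from 27.7 and 29.7 CPM in the cortex to 95.7 and 98.3 CPM in the outer stripe, a log2 difference of 1.91 (SE 0.12, edgeR adjusted p = 1.42e-10). Ace was higher there too, at 90.7 and 79.7 CPM in the cortex and 216 and 205 CPM in the outer stripe (log2 difference 1.46, SE 0.16, edgeR adjusted p = 6.49e-07).

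Ren1 showed the reverse order, with 55.6 and 81.3 CPM in the normal cortex and 15.8 and 17.4 CPM in the outer stripe, a log2 difference of -1.88 (SE 0.24, edgeR adjusted p = 4.51e-06). The cortex held 73.6% and 78.7% of the Ren1 counts of the normal sections but 46.8% and 44.0% of all UMIs. Enpep had 29.6 and 45.3 CPM in the cortex and 9.22 and 17.3 CPM in the outer stripe, a log2 difference of -1.39 (SE 0.12, edgeR adjusted p = 1.44e-08). Agtr1a differed less, at 26.3 and 27.9 CPM against 16.0 and 18.8 CPM (log2 difference -0.50, SE 0.13, edgeR adjusted p = 0.00726), and for Mas1 the log2 difference of 0.55 did not pass (edgeR adjusted p = 0.248).

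The inner stripe of normal sections, which has thick limbs in place of proximal tubule, had 3 genes above and 3 below the cortex, where 28.9% of all genes passed (14.3% higher and 14.6% lower). These included Agt at 103 and 72.4 CPM (log2 difference to the cortex 1.47) and Mme at 82.7 and 68.7 CPM (log2 difference 1.18). Ace was also higher (log2 difference 0.55, edgeR adjusted p = 0.0181), but not without normal section 1 (0.08, adjusted p = 0.712), and not without ischemic section 1 or 2, which share the fit (adjusted p = 0.0752 and 0.0791). Proximal tubule genes summed to 1767 and 1192 CPM in these spots, against 2293 and 2288 CPM in the outer stripe, and the part of proximal tubule in the inner stripe values was not tested. In the inner medulla of normal sections, where 41.2% of all genes passed (20.7% higher and 20.5% lower), Ren1, Enpep and Agtr1a were below the cortex by log2 differences of -2.13, -1.33 and -1.16, and the other 4 genes did not pass.

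**Figure D2:**
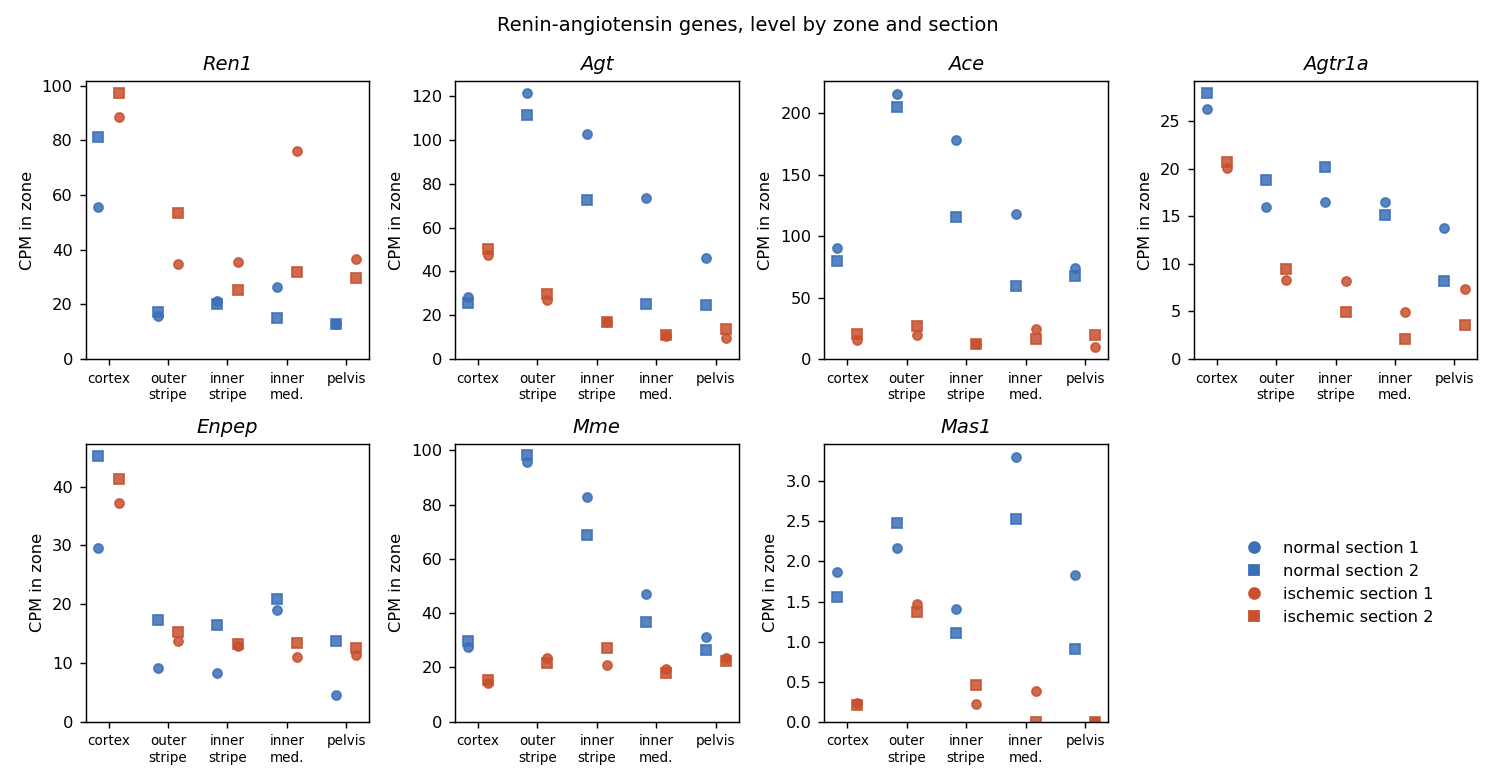
CPM of each gene in the 5 zones of each section, 1 panel per gene, all axes from 0. Blue marks normal and red ischemic sections. In normal sections Agt, Ace and Mme peak in the outer stripe and Ren1, Enpep and Agtr1a in the cortex, while the ischemic points of Agt are highest in the cortex.

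With ischemia, the outer stripe had 5 genes lower and 1 higher, where 67.3% of 13328 genes tested passed (34.5% higher and 32.8% lower). Ace fell from 216 and 205 CPM to 19.9 and 27.2 CPM in ischemic sections 1 and 2, a log2 fold change of -3.53 (SE 0.14, edgeR adjusted p = 1.97e-14). Mme fell to 23.5 and 21.6 CPM (log2 fold change -2.46, SE 0.11, edgeR adjusted p = 8.93e-14). Agt fell to 27.0 and 29.5 CPM (log2 fold change -2.41, SE 0.12, edgeR adjusted p = 6.26e-13). For each of these 3 genes both ischemic sections were far below both normal ones.

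Agtr1a fell from 16.0 and 18.8 to 8.31 and 9.46 CPM in the outer stripe, a log2 fold change of -1.32 (SE 0.14, edgeR adjusted p = 7.00e-08). Mas1, with 34 and 25 UMIs in the normal and 15 and 12 in the ischemic outer stripe, had a log2 fold change of -1.06 (SE 0.34, edgeR adjusted p = 0.00949) that did not pass without ischemic section 1 or 2 (adjusted p = 0.0612 and 0.0696) or with DESeq2 (0.143). Enpep had 9.22 and 17.3 CPM in normal and 13.7 and 15.3 CPM in ischemic sections. The conditions overlapped and the log2 fold change of -0.17 did not pass (edgeR adjusted p = 0.403), although it was -0.51 without normal section 1 (adjusted p = 0.00234) and 0.14 without normal section 2. All 8 proximal tubule genes fell in the outer stripe, with a median of -2.44 against 0.05 for all genes tested, and their part in these falls was not tested.

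Ren1 rose in the outer stripe. It had 15.8 and 17.4 CPM in the normal and 34.6 and 53.4 CPM in the ischemic sections. The lower ischemic section was well above the higher normal one, and the log2 fold change was 1.04 (SE 0.15, edgeR adjusted p = 5.73e-06). It passed under each of 12 alternatives that did not choose spots by Ren1, between 0.71 and 1.41. In ischemic section 2 a single spot held 127 of the 469 Ren1 UMIs of this zone. Without the spot of most Ren1 counts of each whole section the value was 0.79, given as a description. Of these spots only that of ischemic section 2 lay in the outer stripe, so the other sections lost no spot of this zone. Of the mural list, 4 of 6 genes rose there and 0 fell, with a summed level of 76.6 and 97.9 CPM in the normal and 512 and 575 CPM in the ischemic outer stripe. The pelvis, taken as background, also had more Ren1, at 12.8 and 12.8 CPM in the normal and 36.6 and 29.7 CPM in the ischemic sections. The part of mural cells and of this background in the Ren1 rise was not tested.

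In the cortex 4 genes fell and 1 rose, where 49.8% of 13549 genes passed (25.6% higher and 24.2% lower). The gene that rose was Agt. It had 28.3 and 25.5 CPM in the normal and 47.3 and 50.1 CPM in the ischemic cortex, so that both ischemic sections were above both normal ones. The log2 fold change was 0.64 (SE 0.12, edgeR adjusted p = 3.12e-04), and it passed under all 14 alternatives, between 0.45 and 0.85. Spots with an Agt UMI made up 33.5% and 20.6% of the normal and 41.4% and 33.3% of the ischemic cortex. In the same spots 7 of 8 proximal tubule genes fell and 1 rose, with a median log2 fold change of -1.09.

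Ace fell in the cortex from 90.7 and 79.7 to 15.1 and 20.1 CPM, a log2 fold change of -2.50 (SE 0.15, edgeR adjusted p = 1.97e-09). Mme fell from 27.7 and 29.7 to 14.3 and 15.3 CPM (log2 fold change -1.16, SE 0.11, edgeR adjusted p = 7.03e-07). Agtr1a fell from 26.3 and 27.9 to 20.1 and 20.7 CPM (log2 fold change -0.62, SE 0.11, edgeR adjusted p = 2.54e-04). Each of the 3 kept both ischemic sections below both normal ones. Mas1 fell from 39 and 19 UMIs to 3 and 2 UMIs, or from 1.87 and 1.56 to 0.239 and 0.214 CPM, a log2 fold change of -3.10 (SE 0.51, edgeR adjusted p = 1.35e-04). The normal cortex was 7.70 times as high by the 58 and 5 UMIs of each condition, with a 95% counting interval of 3.12 to 24.6.

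Ren1 in the cortex had 55.6 and 81.3 CPM in normal and 88.5 and 97.5 CPM in ischemic sections. Its log2 fold change of 0.26 (SE 0.12) did not pass (edgeR adjusted p = 0.0865). It passed in 7 of 14 alternatives, some of which chose spots by Ren1, and was positive in all 14. In edgeR it passed with section totals (0.45, adjusted p = 0.0231) and with no filter on low counts (0.28, 0.0428). Zones scored without neighbours (0.29, 0.0480) and a replicate block (0.27, 0.0183) also brought it past the threshold. Without normal section 2 it was 0.41. Without the spot of most Ren1 counts of each whole section the value was 0.51, given without a test since the spot was chosen by Ren1 itself. That spot lay in the cortex in both normal sections and in ischemic section 1, but in the outer stripe in ischemic section 2. The cortex of ischemic section 2 thus lost no spot, so the 2 conditions were not trimmed alike. The mural list summed to 184 and 431 CPM in normal and 251 and 245 CPM in ischemic cortex, and its part in these values was not tested. Enpep had 29.6 and 45.3 CPM in normal and 37.2 and 41.2 CPM in ischemic cortex, with overlapping conditions and a log2 fold change of -0.11 (SE 0.13, edgeR adjusted p = 0.509), which was -0.33 without normal section 1 (adjusted p = 0.00636) and 0.07 without normal section 2.

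**Figure D3:**
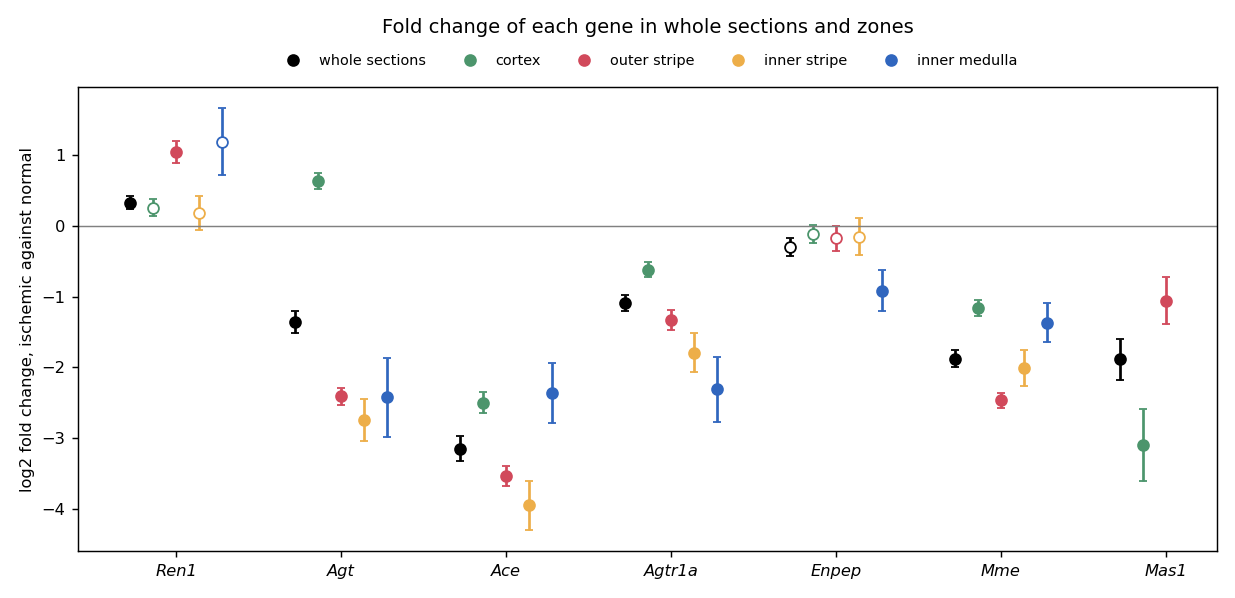
Log2 fold change of ischemic against normal sections for each gene in whole sections and in 4 zones, with the standard error as bar. Filled points passed an edgeR adjusted p of 0.05, open points did not, and Mas1 was not tested in the inner stripe and inner medulla. Agt is above 0 in the cortex and below it elsewhere, and Ace and Mme are below 0 throughout.

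Below the outer stripe the falls went on. In the inner stripe 4 of 6 genes tested fell and 0 rose, where 42.4% of all genes passed (19.8% higher and 22.6% lower). Ace went from 178 and 115 to 12.5 and 12.2 CPM (log2 fold change -3.95, SE 0.35), Agt from 103 and 72.4 to 16.8 and 17.0 CPM (-2.75, SE 0.30), Mme from 82.7 and 68.7 to 21.1 and 27.2 CPM (-2.005, SE 0.26) and Agtr1a from 16.5 and 20.2 to 8.16 and 4.99 CPM (-1.79, SE 0.27), with edgeR adjusted p from 6.35e-05 for Ace to 0.00103 for Agtr1a. Ren1 (log2 fold change 0.19) and Enpep (-0.15) did not pass there (edgeR adjusted p = 0.558 and 0.672).

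In the inner medulla 5 of 6 genes tested fell and 0 rose, where 29.7% of all genes passed (11.7% higher and 17.9% lower). Their log2 fold changes were -2.42 for Agt (SE 0.55), -2.36 for Ace (SE 0.42), -2.31 for Agtr1a (SE 0.45), -1.36 for Mme (SE 0.28) and -0.91 for Enpep (SE 0.29). Agtr1a rested there on 20 and 24 against 13 and 5 UMIs. The Enpep call (edgeR adjusted p = 0.0427) was lost in 7 of 14 alternatives, without normal section 1 (0.0519), ischemic section 1 (0.330) or ischemic section 2 (0.1398), with DESeq2 (0.415), and in edgeR with section totals (0.145), with spots of a clear margin (0.0982) and with the inner medulla list without Cryab and Akr1b3 (0.121). Ren1 had 26.4 and 15.2 CPM in normal and 76.1 and 31.8 CPM in ischemic sections, and 1 spot of ischemic section 1 held 95 of its 199 UMIs in this zone. Its log2 fold change of 1.19 did not pass (SE 0.47, edgeR adjusted p = 0.0925), but passed without normal section 1 (1.84, adjusted p = 8.94e-10) and without ischemic section 2 (1.66, adjusted p = 2.22e-04). The zone drawn as inner medulla also differed in its other cells. Adipocyte genes summed to 1891 and 621 CPM there in normal and 1.91 and 0.860 CPM in ischemic sections, and proximal tubule genes to 1165 and 807 against 221 and 217 CPM, and their part in these falls was not tested. Mas1 had 4 and 4 UMIs in the normal and 1 and 0 in the ischemic inner medulla, where 0 of 286 spots allow a share of up to 1.28% (95% Clopper-Pearson interval).

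Set against their own cortex, the ischemic outer stripe was lower in Enpep, Agtr1a, Ren1 and Agt and higher in Mas1 and Mme. These were 2 genes above the cortex and 4 below it, where 35.4% of all genes passed (16.4% higher and 18.9% lower). Mas1 (log2 difference 2.51, edgeR adjusted p = 0.00160) and Mme (0.58, adjusted p = 0.00415) were higher, although Mas1 did not pass without ischemic section 1 (adjusted p = 0.0806), nor Mme without ischemic section 1 or 2 (0.245 and 0.0657). Enpep (-1.46), Agtr1a (-1.23), Ren1 (-1.11) and Agt (-0.82) were lower. Ace did not pass (0.39, edgeR adjusted p = 0.158), but it was positive in all 9 alternatives and passed in 3 of them, without normal section 1 or 2, which share the fit (adjusted p = 0.0277 and 0.0134), and with zones scored without neighbours (0.62, adjusted p = 0.00592).

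In the inner stripe of the ischemic sections 5 of 7 genes were below the cortex and 0 higher, where 48.9% of all genes passed (22.7% higher and 26.2% lower). Their log2 differences were -1.998 for Agtr1a, -1.99 for Ren1, -1.96 for Enpep, -1.90 for Agt and -0.87 for Ace, of which Ace passed in 5 of 9 alternatives. It did not pass in edgeR without ischemic section 2 (-0.66, adjusted p = 0.216), without a section term (-0.87, 0.0848), with section totals (-0.50, 0.0878) or with zones scored without neighbours (-0.38, 0.123). Mme was at 0.34 (edgeR adjusted p = 0.103) and passed as higher in 4 of 9. In the inner medulla 4 were lower and 0 higher, where 44.8% of all genes passed (20.1% higher and 24.6% lower). These were Agtr1a (-2.85), Agt (-2.55), Enpep (-2.05) and Ren1 (-1.14), and Ren1 did not pass without ischemic section 2 (-0.60, edgeR adjusted p = 0.122).

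The change of a zone difference with ischemia was tested directly. For the outer stripe against the cortex, 5 of the 7 genes passed, 4 lower and 1 higher, where 20.2% of all genes did (12.7% lower and 7.44% higher). Agt changed by -3.09 on the log2 scale (SE 0.23, edgeR adjusted p = 5.39e-08): its outer stripe was 2.27 above its cortex in normal sections and -0.82 from it in ischemic ones. The change of -3.09 passed under each of 9 alternatives. The ischemic difference alone stayed negative in all 9, but did not pass without ischemic section 1 or 2 (-0.79 and -0.83, edgeR adjusted p = 0.141 and 0.103) or without a section term (-0.81, adjusted p = 0.0629). In the inner stripe and inner medulla, Agt changed by -3.37 (SE 0.27, edgeR adjusted p = 2.97e-08) and -2.996 (SE 0.37, adjusted p = 1.38e-05) against the cortex. In the inner stripe 18.1% of all genes passed that test (4.79% higher and 13.3% lower), and 4 of the 7 genes, all lower: Agt, Ace (-1.41), Agtr1a (-1.18) and Mme (-0.85). In the inner medulla 13.8% passed (3.52% higher and 10.2% lower), and 2 of the 7, both lower: Agt and Agtr1a (-1.69).

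Mme changed by -1.33 (SE 0.19, edgeR adjusted p = 4.42e-05) between outer stripe and cortex, and this held under all 9 alternatives. Ace changed by -1.07 (SE 0.26, edgeR adjusted p = 0.00611) and Agtr1a by -0.73 (SE 0.21, adjusted p = 0.0176), but neither passed without ischemic section 1 (0.124 and 0.187) or 2 (0.109 and 0.0909) or without a section term (0.155 and 0.0606), nor Agtr1a with section totals (0.0942), while both stayed negative in all 9 alternatives. Mas1 changed by 1.96 (SE 0.66, edgeR adjusted p = 0.0410), on the 5 UMIs left in the ischemic cortex, and did not pass without normal section 1 or either ischemic section (adjusted p from 0.185 to 0.282). For Ren1 the change of 0.77 (SE 0.32) did not pass (edgeR adjusted p = 0.107), so its rise in the outer stripe was not shown to differ from that in the cortex. It passed in edgeR without normal section 1 (0.94, adjusted p = 0.0170) and with section totals in place of TMM factors (0.94, adjusted p = 0.0409). Enpep had outer stripe differences of -1.39 and -1.46 in the 2 conditions, a change of -0.08 (SE 0.17) that did not pass (edgeR adjusted p = 0.808).

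**Figure D4:**
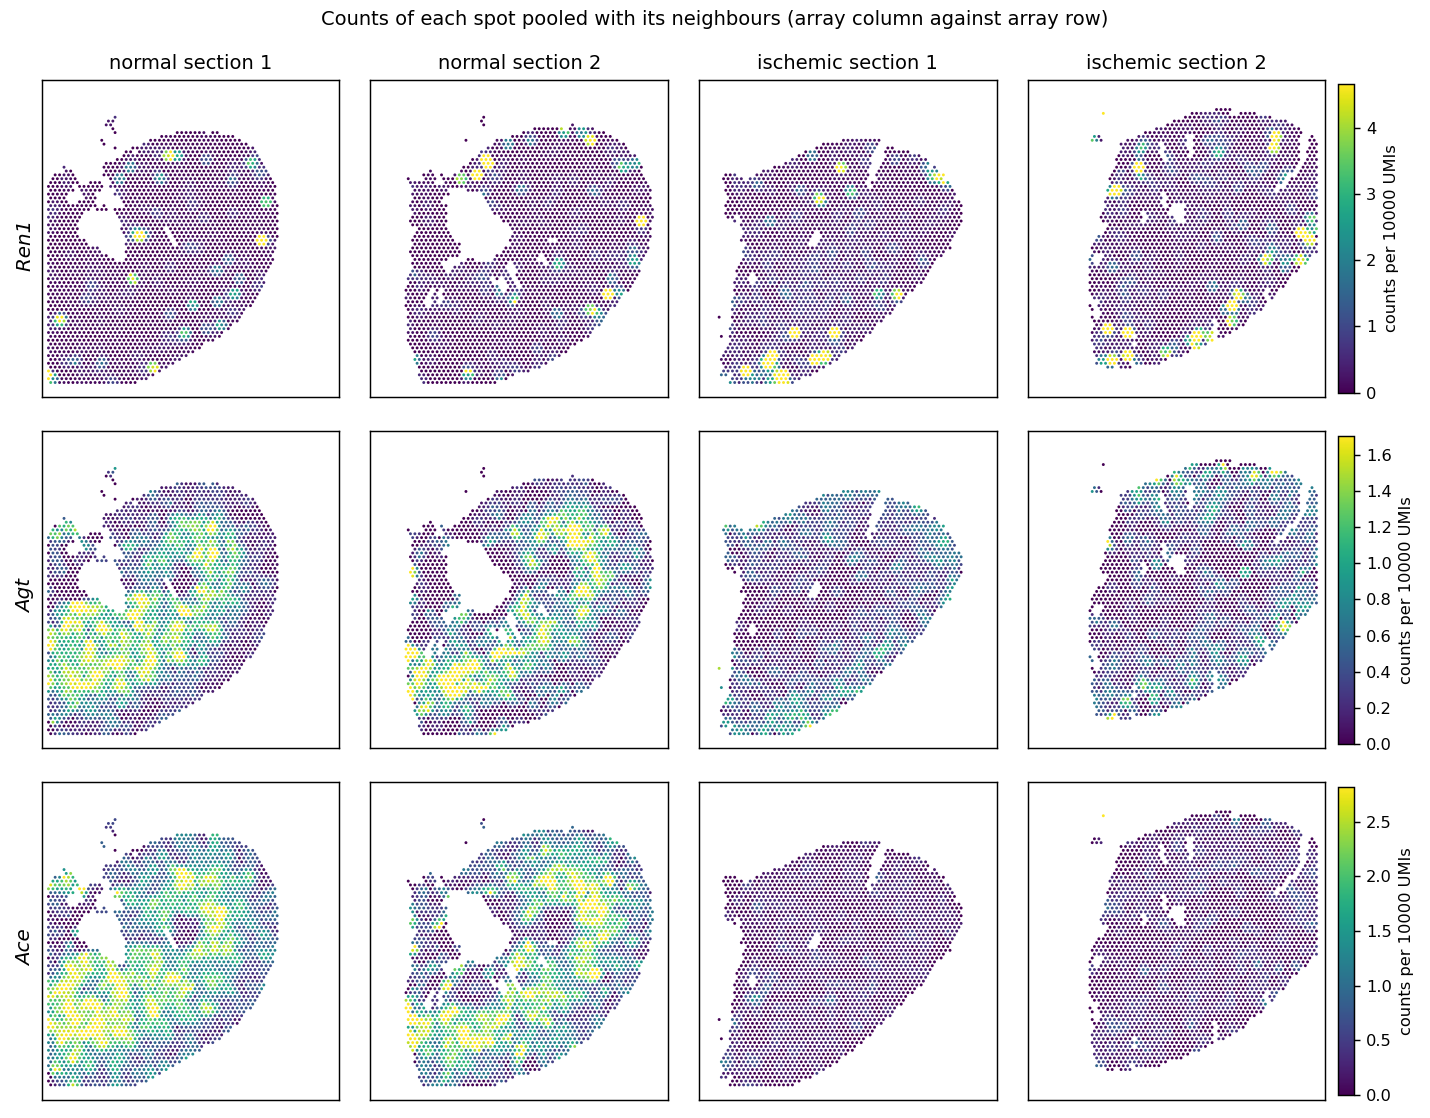
Ren1, Agt and Ace in each section, drawn on the spot array with each spot's counts pooled with those of its neighbours and given per 10000 UMIs. Colours are capped at the 98th percentile of all spots. Ren1 appears as scattered points, mostly near the edge of the section, while Agt and Ace form a broad inner band in both normal sections that is faint in the ischemic ones.

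Ren1 counts were spread less evenly over spots than those of Ace and Agt. The top 1% of spots held 53.0% and 57.7% of its counts in the normal and 43.2% and 40.5% in the ischemic sections, against 5.30% to 12.6% for Ace and 6.96% to 12.0% for Agt. This share also depends on how many counts a gene has, and for Mas1, with 16 to 87 UMIs per section, it was 31.0% and 53.8% in the normal and 100% in both ischemic sections. The richest spot held 333 and 123 Ren1 UMIs in the normal and 102 and 127 in the ischemic sections. A single spot of normal section 1 thus carried more Ren1 UMIs than the whole outer stripe of that section, which had 248.

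Spots with 5 or more Ren1 UMIs numbered 39 and 31 in the normal cortex and 42 and 40 in the ischemic cortex. They held 73.0% and 74.1% of the Ren1 counts of the normal cortex and 70.5% and 65.5% of those of the ischemic cortex. Akr1b7, a gene known from renin cells, was 40.2 and 32.6 times as high in these spots as in the other cortex spots of the normal sections and 42.2 and 46.3 times in the ischemic sections. The podocyte list was 4.06 and 2.65 times as high in them in normal and 5.18 and 3.28 times in ischemic sections, and the proximal tubule list 0.823 and 0.863 times in normal and 0.819 and 0.671 times in ischemic sections. The list of juxtaglomerular and macula densa genes was 13.0 and 7.24 times as high in normal and 13.6 and 10.4 times in ischemic sections. This list holds Akr1b7, which gave 39 of its 57 and 29 of its 38 UMIs in these spots of the normal sections. In the ischemic sections Akr1b7 gave 26 of 54 and 29 of 44. Gja4 of the same list was 2.65 and 1.48 times as high in normal and 8.40 and 4.19 times in ischemic sections. Ptgs2 had 0 UMIs in these spots and in the other cortex spots of both normal sections. The mural list was 1.86 and 0.647 times as high in normal and 2.87 and 2.67 times in ischemic sections, so it was lower in normal section 2. The spots thus had more of Akr1b7 and the podocyte list in all 4 sections, with no test, since spots of a section are not replicates.

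Outside these spots Ren1 was low but widespread. In the cortex it stood at 15.5 and 21.9 CPM in normal and 27.0 and 35.1 CPM in ischemic sections. In the pelvis, which should hold no renin cells, the level was 12.8 and 12.8 CPM in normal and 36.6 and 29.7 CPM in ischemic sections, or 24.3 CPM in ischemic section 1 without 2 such spots. The pelvis is the zone of least certain outline, with 67.2% and 57.0% of its spots in normal and 28.3% and 26.7% in ischemic sections kept when scored without neighbours. Outside the rich spots the outer stripe was at 8.98 and 13.4 CPM against 12.8 and 12.8 CPM in the pelvis of the normal sections, and at 22.2 and 29.8 CPM against 24.3 and 29.7 CPM in the ischemic ones, and the part of background in these values was not tested. The limit of 5 UMIs is reached more easily in deeper spots.

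Spots with a Ren1 UMI made up 18.2% (95% Clopper-Pearson interval 16.8 to 19.8) and 14.5% (13.2 to 15.9) of the normal and 27.7% (25.9 to 29.5) and 23.1% (21.5 to 24.7) of the ischemic sections. The intervals cover counting error only. Thinned to 2000 UMIs per spot, which left out 48 to 150 spots of a section, the shares were 4.05% and 4.15% against 7.43% and 7.42%. In the pelvis 7.63% and 8.89% of spots in normal and 26.4% and 22.1% in ischemic sections had a Ren1 UMI, at median depths of 5997, 5715, 10572 and 7396 UMIs, so the shares rose in the zone used as background as well.

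Glomeruli were sought as the 10% of cortex spots richest in podocyte genes, where Enpep, made by podocytes, was compared with the other cortex spots of the same section. Enpep was 2.46 and 2.76 times as high in these spots in the normal and 3.52 and 5.005 times in the ischemic sections. In CPM that was 66.1 and 111 against 26.8 and 40.1 in normal and 111 and 167 against 31.7 and 33.4 in ischemic sections. Ren1 was 16.1 and 4.99 times as high in normal and 11.2 and 6.58 times in ischemic sections. In the top 5% of cortex spots it was 6.25 and 7.11 times in normal and 12.3 and 8.28 times in ischemic sections, so that normal section 1 was the highest of the 4 in the one choice and the lowest in the other. In that section the top 10% held 640 and the top 5% held 193 Ren1 UMIs, while a single cortex spot held 333. The part of this spot in the ratios was not tested. Agtr1a, known from mesangial cells and vessels as well as tubules, was 1.66 and 1.65 times as high in normal and 1.56 and 1.34 times in ischemic sections. Mme, also made by podocytes, was 1.24 and 1.28 times as high in normal and 2.09 and 1.73 times in ischemic sections. In CPM Mme was 33.7 and 37.3 in these spots and 27.2 and 29.2 in the others of the normal sections. In the ischemic sections it was 27.9 and 25.4 against 13.3 and 14.7, and so lower than normal in both kinds of spot. Agt and Ace were between 0.755 and 1.38 times, with neither gene on the same side of 1 in all 4 sections. None of the 39, 19, 3 and 2 Mas1 UMIs of the cortex of the 4 sections fell in these spots. The counts behind the ratios are small, 10 to 15 UMIs for Ace and 14 to 24 for Mme in the ischemic sections, and the ratios are given without a test.

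The other genes of the pathway were read from a list of 16 that holds alternative enzymes, receptors and helpers. Of these, 10 had enough counts to be tested and all 10 passed in whole sections, 6 lower and 4 higher, beside the 60.6% of all genes that passed. The median was -0.33, against 0.04 over all genes. Anpep, the aminopeptidase N of the brush border that acts on angiotensin III, had 35.7 and 39.4 CPM in normal and 15.5 and 15.3 CPM in ischemic sections, a log2 fold change of -1.56 (SE 0.097, edgeR adjusted p = 1.97e-06). Agtrap, a protein that binds the type 1 receptor and promotes its uptake, fell by 1.11 (SE 0.12), and Ctsa, a lysosomal carboxypeptidase, by 0.99 (SE 0.13).

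Klk1, a tissue kallikrein of the distal nephron that releases kinins, fell by 2.47 on the log2 scale (SE 0.21), from 5052 and 5674 CPM to 1260.3 and 1073 CPM. Its family has near-identical copies in the mouse, so how its reads were shared with them is uncertain. Atp6ap2, the prorenin receptor and a part of the proton pump, and Prcp, a carboxypeptidase acting on angiotensin II, had small log2 fold changes of -0.40 and -0.26 (edgeR adjusted p = 0.00791 and 0.0335). Atp6ap2 passed in 9 of 12 alternatives, and lay at -0.12 when section totals replaced TMM factors (edgeR adjusted p = 0.344). Prcp passed in 7 of 12, and not with DESeq2 (adjusted p = 0.166). Its conditions overlapped, at 20.8 and 23.9 CPM in normal and 22.1 and 22.9 CPM in ischemic sections. With section totals Prcp lay at 0.01, so its direction depends on the scaling.

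The 4 that rose are peptidases of the cytosol, mitochondria or membrane that cleave angiotensins among other peptides. Nln had 16.2 and 15.9 CPM in normal and 40.4 and 40.8 CPM in ischemic sections (log2 fold change 1.05, SE 0.11, edgeR adjusted p = 5.08e-05). Lnpep, whose product binds angiotensin IV, had 19.5 and 25.1 against 45.9 and 52.9 CPM (log2 fold change 0.89, SE 0.10). Prep and Thop1, which form angiotensin 1-7 from angiotensin I, both had 0.80. Nln and Lnpep also rose in each of the 4 zones, and Prep did so too.

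By zone, the falls differed in size for some of these genes. For Agtrap and Prcp the change of a zone difference with ischemia passed in no zone (edgeR adjusted p from 0.316 to 0.880 and from 0.306 to 0.790). Anpep had a log2 fold change of -0.62 in the cortex, -2.79 for the outer stripe, -2.67 for the inner stripe and -2.10 for the inner medulla, and passed in all 4. Of the 10 genes, 4 were higher and 4 lower in the cortex, 4 higher and 6 lower in the outer stripe, 4 higher and 5 lower in the inner stripe, and 3 higher and 3 lower in the inner medulla, where 49.8%, 67.3%, 42.4% and 29.7% of all genes passed. The remaining 6 genes of the list had too few counts for a test. These are the receptors Agtr1b, Agtr2 and Mrgprd and the mast cell and neutrophil proteases Cma1, Cpa3 and Ctsg, with 0 to 3 UMIs in any section. Agtr2, the type 2 receptor, had 3 and 2 UMIs in the normal and 0 in both ischemic sections, where 3 counts would be 0.0966 and 0.116 CPM.

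**Figure D5:**
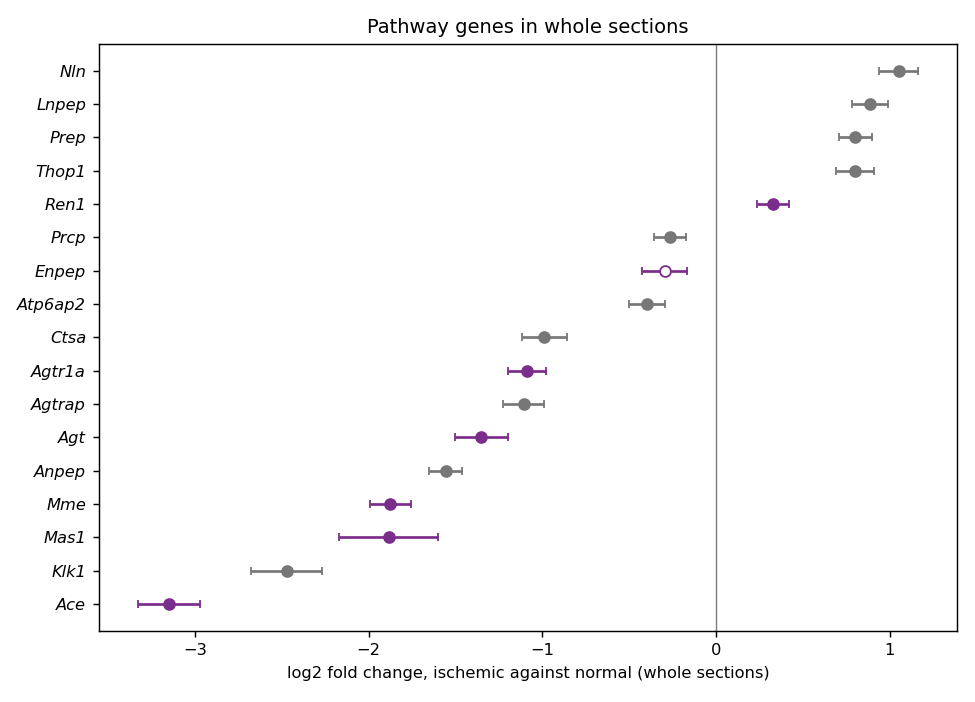
Log2 fold change of ischemic against normal whole sections for the 7 genes (purple) and 10 further pathway genes (grey), with the standard error as bar. Filled points passed an edgeR adjusted p of 0.05, and Enpep is the open one. The genes run from Ace at -3.15 to Nln at 1.05.

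Genes with the most similar pattern over the 20 sums of section and zone were listed for each member by Pearson's r of log2(CPM + 1), among 13797 genes. The sums share sections, zones and depth, so r is a description. For Ace the closest were Hist1h4i (0.980), Ldc1 (0.978) and Acy1 (0.976), and for Mme they were Kyat3 (0.962), Tmco3 (0.951) and Myo5a (0.942). For Agt they were Slc38a3 (0.942), Nceh1 (0.936) and Aqp7 (0.935), among which Slc38a3 is a glutamine transporter and Aqp7 a glycerol channel of the straight proximal tubule. Agtr1a was closest to Btd (0.953), Erich4 (0.944) and Fitm1 (0.941), and Enpep to Atp6v1h (0.889), Lipa (0.887) and Retreg1 (0.884). Ren1 was closest to Errfi1 (0.864), Nme2 (0.857) and Cyp24a1 (0.855), and Mas1 to Cbs (0.875), Scd1 (0.874) and Scgb1c1 (0.868). Among the members themselves, r was highest for Ace with Mme (0.861) and Ace with Mas1 (0.815) and lowest for Ren1 with Mme (-0.63).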

How the data were processed

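Gene expression was measured with Visium spatial RNA sequencing in 4 mouse kidney sections, 2 per condition. The deposited values are UMI counts per gene and spot, made by the authors with Space Ranger 1.3.0 (named in the file headers) on the build mm10, with only spots under tissue kept and no further normalization. Counts of all spots, or of the spots of a zone, were summed per section. The 7 genes, the gene lists and the tests were chosen with earlier results of these data known, as were the zone lists.

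Zones were the cortex, outer stripe, inner stripe, inner medulla and pelvis, assigned by the highest of 4 marker list scores, each computed on a spot and its 6 neighbours and standardized within the section, with the pelvis taken as spots in the top 5% of a section by urothelial genes that held at least 10 of them. Sums were tested with edgeR 4.0.16 (quasi-likelihood test, TMM factors, its own filter on low counts, R 4.3.3) over all genes of the sums, with Benjamini-Hochberg adjusted p under 0.05 as the threshold. Each zone had its own fit for ischemic against normal sections. Differences between zones, and their change with ischemia, came from 1 fit with the section as a block. The fits were tested on simulated data. Descriptions used Python 3.11.15. Positions came from GENCODE release M21 by Ensembl ID (32158 of 32285 IDs matched, 99.6%).

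The text names the 7 genes, the pathway list, genes of the marker lists, Havcr1 and Lcn2, and for each member the 3 genes of highest Pearson correlation among genes with at least 100 counts. Some listed genes are not reported here. Alternatives were DESeq2 1.42.0, no TMM factors, no filter on low counts, a replicate block, each section left out in turn, spots of at least 500 UMIs, other zone assignments and, chosen after the data were seen, sums without Ren1-rich spots and zone comparisons with each section left out.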

Additional observations from a re-analysis of the deposited data

Results flagged for a closer look

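In 11 cases the difference between a zone and the cortex changed with ischemia, by edgeR's test of that change (adjusted p under 0.05). Agt had the most negative values, -3.09 for the outer stripe, -3.37 for the inner stripe and -2.996 for the inner medulla, and passed in each of them under all 9 alternatives. Mme changed by -1.33 in the outer stripe, under all 9 alternatives, and by -0.85 in the inner stripe, where it did not pass without normal section 1 (-0.40, adjusted p = 0.219), ischemic section 1 (adjusted p = 0.213), ischemic section 2 (0.0643) or a section term (0.0611). Ace changed by -1.07 in the outer stripe, which did not pass without ischemic section 1 or 2 (adjusted p = 0.124 and 0.109) or without a section term (0.155), and by -1.41 in the inner stripe, which did not pass without ischemic section 2 (0.123) or a section term (0.0697). Agtr1a changed by -0.73 in the outer stripe, by -1.18 in the inner stripe and by -1.69 in the inner medulla, and none of the 3 passed without ischemic section 2 (adjusted p = 0.0909, 0.133 and 0.1396). Without ischemic section 1 the outer stripe value of Agtr1a did not pass either (adjusted p = 0.187), nor without a section term (0.0606) or with section totals (0.0942), nor the inner medulla value without normal section 1 (0.0728). Mas1, at 1.96 in the outer stripe, passed in 2 of its 7 alternatives, and not without normal section 1, ischemic section 1 or ischemic section 2 (adjusted p = 0.185, 0.282 and 0.218).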

How the results depend on the processing

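Over the alternatives, 126 of 149 counts of called genes stayed within 1.5 times the reported one. Of 1117 values for single genes, 982 kept direction and side of the threshold, 59 no longer passed, 39 newly passed and 37 changed sign, and 8 of 13 descriptions stayed within the spread between sections. The cause of these shifts was not tested. Where a section is left out, the lone section of its condition is assumed to vary like the others. Depth limited Mas1 most, with 16 to 87 UMIs per section.

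With DESeq2, 3338 genes passed in the inner stripe (reported count 5298) and 1984 in the inner medulla (3355). Without a section term, 2079 passed for the normal outer stripe against the cortex (3164), and 1567, 1508 and 1141 for the change of the outer stripe, inner stripe and inner medulla differences (2876, 2574 and 1961). Leaving out each section in turn gave 2586 to 7545 genes for ischemic against normal inner stripe and 1956 to 4552 for the inner medulla. For zones against the cortex it gave 1711 to 6349 in the ischemic outer stripe (5041), 3898 to 7837 in the ischemic inner stripe (6966), 3913 to 5315 in the normal inner medulla (5875) and 3476 to 6994 in the ischemic inner medulla (6381). For the change with ischemia it gave 798 to 3381, 947 to 3286 and 677 to 2189 for the outer stripe, inner stripe and inner medulla.

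Section totals in place of TMM moved the median log2 fold change of all genes from 0.02 to 0.23 (cortex), 0.05 to 0.41 (outer stripe), 0.06 to 0.37 (inner stripe) and 0.01 to 0.20 (inner medulla). The share of called genes that were higher went from 51.4% to 67.9%, 51.2% to 69.5%, 46.7% to 62.3% and 39.6% to 51.8% there. For zones against the cortex it went from 54.6% to 33.0% in the normal outer stripe, from 49.3% to 76.3% and 46.5% to 74.0% in the normal and ischemic inner stripe, and from 50.2% to 76.5% and 44.96% to 72.6% in the normal and ischemic inner medulla, and for the change with ischemia from 36.9% to 60.0% (outer stripe) and 26.5% to 39.4% (inner stripe). With it Prcp lay at 0.0088 in whole sections, and Enpep at 0.078 (cortex), 0.16 (outer stripe) and 0.13 (inner stripe), with changes of its zone differences of 0.098 and 0.067. The change of the inner stripe difference of Ren1 was 0.041. Against the cortex, the inner medulla values were 0.015 (Ace, normal), 0.25 (Ace, ischemic) and 0.35 (Mme, ischemic).

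Zones scored without neighbours gave -0.30 for Mas1 in the ischemic inner stripe, 0.039 for Ace and -0.84 for Mas1 in the normal inner medulla and 0.31 for Mme in the ischemic inner medulla, all against the cortex, and changes with ischemia of 0.0014 for Ren1 in the inner stripe and -0.42 for Ace in the inner medulla. Spots with a clear margin gave -0.10 for Ren1 in ischemic against normal inner stripe. The inner medulla list without Cryab and Akr1b3 gave 0.084 for Mme in the ischemic inner medulla against the cortex.

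Leaving out sections, the log2 fold change of ischemic against normal sections ran for Enpep from -0.33 to 0.068 (cortex), -0.51 to 0.14 (outer stripe) and -0.44 to 0.067 (inner stripe), and for Ren1 from -0.082 to 0.48 in the inner stripe. Changes of zone differences ran for Enpep from -0.24 to 0.058 (outer stripe) and -0.10 to 0.029 (inner stripe), for Ren1 from -0.46 to 0.49 in the inner stripe, and for Ace from -0.31 to 0.88 and Mme from -0.48 to 0.25 in the inner medulla. Against the cortex, the normal inner medulla ran from -0.57 to 1.07 for Agt, -0.98 to 0.073 for Ace and -0.26 to 0.46 for Mme. The ischemic inner medulla ran from -0.67 to 0.31 for Ace, -0.13 to 0.065 for Mme and -3.51 to 0.28 for Mas1, and Mas1 in the ischemic inner stripe from -0.42 to 0.68.

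Thinned to 2000 UMIs per spot, the ischemic over normal ratio of the share of spots with a UMI was 0.160 for Ace and 0.146 for Mas1. In the top 5% of cortex spots by podocyte genes, the mean ratio to other cortex spots was 1.82 for Agtr1a, 4.93 for Enpep and 2.13 for Mme.

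The replicate numbers of the labels are not said to mark shared animals, and over 15305 genes the difference between replicates 1 and 2 correlated at 0.162 between conditions. With the replicate number as a block, 10089 genes passed in whole sections (9279 without), with 7306 (cortex), 9156 (outer stripe), 5438 (inner stripe) and 3923 (inner medulla) by zone. Among the members the block brought Enpep in whole sections (adjusted p = 0.0117) and Ren1 in the cortex (0.0183) and inner medulla (6.40e-04) past the threshold in edgeR.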
